A study of Mus musculus with 8 samples.

Results

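Blood stem cells rarely divide, so RNA of the DNA replication machinery in a sorted stem cell population reads, as an average over many cells, how much replication-related transcription that population carries. The 33 genes described here encode parts of that machinery: the factors that license origins, the replication fork, the enzymes of nucleotide supply, chromatin assembly on new DNA and the regulators of entry into S phase. They were chosen by name for their known roles, by a choice made with earlier results of these data in view, and all 33 were found among the 24222 gene symbols of the count tables. All 33 also passed the filter on low counts, which left 11498 genes. Of the 33, 32 were above the filter's level in all 8 libraries. Ccne1 was above it in 6 libraries, all 4 KO but only 2 WT, so its entry into the test rested mostly on the KO libraries.

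The libraries came from haematopoietic stem cells, which renew themselves and give rise to all blood cells, sorted by flow cytometry from bone marrow of C57BL6 mice. Of the 8 mice, 4 were labelled wild-type controls (WT), and 4 carried a triple knockout of Kdm4a, Kdm4b and Kdm4c (KO), whose products remove methyl groups from histone H3 lysines. The KO was induced in the animal and the cells were sorted 2 weeks later. Which Cre or inducer was used, whether the controls received it too, the sort markers and the age of the mice are details the sources used here do not give. Values per mouse follow the order of mouse numbers, 1 to 4. Each mouse gave 1 library, made from amplified total RNA, and reads were counted without molecular identifiers, so amplification copies are included.

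Before a cell can copy its DNA, the origin recognition complex, Cdc6 and Cdt1 load the MCM helicase on chromatin in G1 phase. In S phase Cdc45 and the GINS complex switch that helicase on, primase and polymerase alpha lay down primers, and the clamp loader RFC places the sliding clamp PCNA. Many of these genes are transcribed as a group at the passage from G1 to S phase under E2F transcription factors, and resting haematopoietic stem cells are known for low expression of them. RNA from bulk sorted cells cannot tell a larger share of cycling cells from more RNA per cycling cell.

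Total counts were between 3594315 (WT mouse 2) and 14872493 (KO mouse 3), and the other 6 libraries held between 5086878 and 7059382. Levels are given as CPM, which are counts relative to the library total, scaled by edgeR's TMM factors of 0.974 to 1.03. RNA of all 3 targeted genes was below the WT range in each KO mouse. Kdm4a was at 29.5 to 50.1 CPM against 17.7 to 26.0 CPM, Kdm4b at 6.71 to 12.1 against 1.11 to 5.15 CPM and Kdm4c at 98.8 to 148 against 26.0 to 49.0 CPM (WT against KO). The summed level of 9 stem cell markers (Procr, Slamf1, Mecom, Hlf, Hoxb5, Fgd5, Ctnnal1, Kit and Ly6a) was between 3043 and 3406 CPM in WT and between 2643 and 2901 CPM in KO, so it was lower in all KO mice. Most of the sum was Hlf and Kit, averaging 1475 and 1093 CPM in WT and 1214 and 888 CPM in KO. A mean of centred log2 CPM gives each marker the same weight, and by it the genotypes overlapped. It was -0.113, 0.073, 0.092 and 0.146 in the WT mice and -0.054, 0.044, -0.181 and -0.007 in the KO mice. Before adjustment, p was under 0.05 for 3 of the 9 lower in KO (Mecom, Kit and Hlf) and for 1 higher (Ly6a), and 0 passed after adjustment. Of all genes tested, 5.44% were lower and 5.76% higher before adjustment. Markers of other progenitors summed to less, though not every single marker was low. Tfrc, of the erythroid list, averaged 65.7 CPM in WT, above the stem cell markers Procr at 60.9 and Hoxb5 at 16.5 CPM. The 8 myeloid markers summed to between 28.4 and 42.4 CPM in WT and between 28.6 and 71.6 CPM in KO, the top value being that of KO mouse 2, and Cebpe was at 0 throughout. The 8 erythroid markers summed to between 106 and 125 CPM in WT and between 105 and 115 CPM in KO, with Tfrc averaging 65.7 and 66.9 CPM of it. Among them Car1 was at 14.7, 7.55, 4.50 and 5.65 CPM in the WT mice and at 0.715, 1.42, 3.74 and 1.86 CPM in the KO mice, without overlap (edgeR's adjusted p 0.132). The erythroid score, over the 5 markers that passed the filter, differed by -0.39 on the log2 scale (KO minus WT). The 5 did not move alike. Log2 fold changes were -1.81 for Car1, -0.55 for Epor, -0.16 for Klf1, 0.04 for Tfrc and 0.44 for Gata1. The 8 lymphoid markers summed to between 6.99 and 12.7 CPM in WT and between 2.14 and 8.36 CPM in KO, with Dntt at 0 in every library. Nearly all of this was Flt3, which averaged 8.92 ± 2.38 CPM in WT against 4.90 ± 2.97 CPM in KO (SD, n = 4), with overlap and an adjusted p of 0.386 by edgeR. The part of these differences in the results on the replication genes was not tested.

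No replication gene passed the threshold over all genes, an adjusted p under 0.05 by edgeR's quasi-likelihood test: 0 of 33 were higher and 0 lower, where 0.252% of all genes tested were called higher and 0.33% lower. At an unadjusted p under 0.05, 6 of the 33 were higher in KO (Mcm6, Ccne1, Rrm2, Mcm10, Prim1 and Mcm7) and 0 were lower, beside 5.76% of all genes higher and 5.44% lower. The 6 became 3 without WT mouse 2 and 2 without the shallowest and the deepest library together (WT mouse 2 and KO mouse 3). Of the 6, Ccne1 entered the test mostly through the KO libraries. It did not pass a filter of 5 CPM in 4 libraries, with which the count was 5. A fold above 1 was fitted for 29 of the 33, and for 50.2% of all genes. The median log2 fold change of the 33 was 0.17, against 0.00 for all genes, and the members ran from -0.49 for Rfc3 to 1.88 for Ccne1. The 4 with a fold below 1 were Cdc45, Rfc3, Rfc4 and Chaf1b. In 1 of 33 genes, Mcm10, all KO mice were above all WT mice, beside 2.88% of all genes; no member had all KO mice below all WT mice, beside 2.93%.

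**Figure D1:**
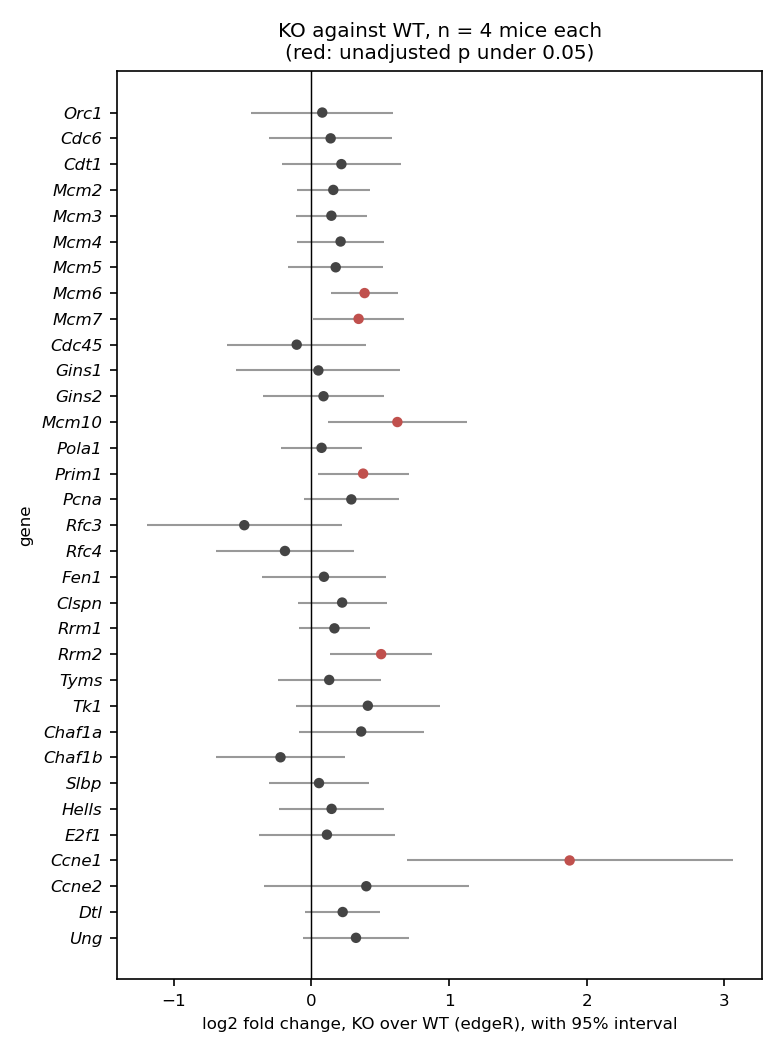
Log2 fold change of KO over WT for each of the 33 genes (x axis) with its 95% interval from edgeR's fit, 4 mice per genotype; red points had an unadjusted p under 0.05. Most points, 29 of 33, lie to the right of 0, and the intervals of all but the 6 red points include 0.

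All 9 origin licensing genes had a fold above 1, and their log2 fold changes had a median of 0.18. Mcm6, 1 of the 6 subunits of the helicase, had the highest RNA level of the 33 genes per kilobase of exon, 102 CPM per kilobase in WT. Pcna followed at 75.2, Mcm4 at 72.9 and Mcm3 at 58.1 CPM per kilobase. The length joins all annotated exons of a gene, so long annotated forms lower this value. By CPM alone Mcm6 was also highest of the 33, averaging 474 in WT, followed by Rrm1 at 415. In CPM, Mcm6 (chromosome 1, 128331590 to 128359664, minus strand, mm10) was at 497, 434, 425 and 541 in the WT mice and at 735, 577, 519 and 658 in the KO mice. KO mice 1, 2 and 4 were above every WT mouse and KO mouse 3 was below WT mouse 4. Its mean was 474 ± 55.0 CPM in WT and 622 ± 94.3 CPM in KO (SD, n = 4), giving a log2 fold change of 0.39 (SE 0.118). The adjusted p was 0.163 by edgeR's quasi-likelihood test and a two-sided exact permutation test over the 4 and 4 mice gave p = 0.0571, where the smallest possible is 0.0286. With all genes that had at least 1 count entered, the adjusted p of Mcm6 by edgeR became 0.0495.

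Mcm7, another helicase subunit, was at 136, 127, 135 and 189.7 CPM in the WT mice and at 201, 158, 235 and 149.7 CPM in the KO mice. The WT value of mouse 4 lay above those of KO mice 2 and 4, and the log2 fold change was 0.34 (SE 0.159; adjusted p 0.415 by edgeR). Mcm7 shares 8.7% of its exon length with genes on the other strand and 3.9% with genes on its own. Reads there may be lost or miscounted, depending on counting settings that are not given. The same holds for other-strand overlaps of 17.4% in Ccne2, 12.65% in Rfc4 and 10.8% in Orc1. Mcm4 was at 256, 256, 237 and 297 CPM in WT and at 435, 248, 248 and 286 CPM in KO. One KO mouse, number 1, accounted for the higher KO mean of Mcm4: without it the log2 fold change went from 0.21 to -0.01. Mcm2, Mcm3 and Mcm5, which complete the ring, had log2 fold changes of 0.16 (SE 0.129), 0.14 (SE 0.126) and 0.18 (SE 0.167), and in each the genotypes overlapped.

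The loading factors differed less between the genotypes than within them. Orc1, the largest subunit of the origin recognition complex, averaged 24.5 ± 2.49 CPM in WT and 24.9 ± 6.16 CPM in KO (SD, n = 4). Cdc6, the ATPase that joins it, was at 39.4, 22.9, 38.2 and 38.9 CPM in WT and at 46.0, 39.1, 34.2 and 40.5 CPM in KO, so WT mouse 2 alone was well below the rest. Cdt1, which brings the helicase to the origin, was at 31.1 CPM in WT mouse 3 and 61.1 CPM in KO mouse 3, and between 40.1 and 47.4 CPM in the other 6 mice. The log2 fold changes of Orc1, Cdc6 and Cdt1 were 0.08, 0.14 and 0.22, with 95% intervals of -0.44 to 0.59, -0.31 to 0.59 and -0.22 to 0.65. Differences up to these bounds could not be told from 0.

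The promoters of these genes are known for E2F sites, and 4 are shown to make that common feature visible. RefSeq windows from 250 bases before to 50 bases after the start site (GRCm38.p6, the assembly mm10 stands for) were held for 29 of the 33 genes. An exact match to TTTCCCGC or TTTGGCGC on either strand was present in 10 of the 29 (34.5%), in 315 of 8796 genes tested (3.58%), in 15 of 50 other replication genes (30%) and in 0 of 28 genes of G2 and mitosis. The 10 were Cdc6, Cdt1, Mcm3, Mcm5, Mcm6, Mcm7, Pola1, Rfc3, Hells and Dtl, with 12 matches in all, none overlapping another (0 pairs). The plain CCAAT pentamer, on either strand, was in 18 of the 29 (62.1%), 22 of 28 G2 and mitosis genes (78.6%) and 43.2% of genes tested. Below are the 170 bases before the start site for the 4 genes with a match there and the smallest p-values, with the matches in capitals. They lie at chr1:128359706-128359875 (minus strand), chr5:138171884-138172053 (minus strand), chr1:191575545-191575714 (minus strand) and chr8:75109339-75109508 (plus strand).
Mcm6: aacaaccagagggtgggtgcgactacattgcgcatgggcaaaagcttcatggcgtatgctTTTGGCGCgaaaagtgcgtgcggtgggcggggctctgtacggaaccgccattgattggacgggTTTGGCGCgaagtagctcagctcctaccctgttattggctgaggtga
Mcm7: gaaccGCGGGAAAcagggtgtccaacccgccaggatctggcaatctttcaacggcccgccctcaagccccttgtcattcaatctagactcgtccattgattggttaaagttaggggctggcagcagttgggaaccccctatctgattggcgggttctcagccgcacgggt
Dtl: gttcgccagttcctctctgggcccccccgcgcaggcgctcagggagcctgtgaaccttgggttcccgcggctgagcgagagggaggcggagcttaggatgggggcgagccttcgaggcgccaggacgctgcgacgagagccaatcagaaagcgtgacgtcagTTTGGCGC
Mcm5: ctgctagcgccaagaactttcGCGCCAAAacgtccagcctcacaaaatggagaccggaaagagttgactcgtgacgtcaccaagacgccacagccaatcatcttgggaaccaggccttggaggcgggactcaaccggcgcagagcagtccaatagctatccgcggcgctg

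Mcm6 held 2 matches and the other 3 promoters 1 each in these stretches; in Mcm7 and Mcm5 the match is on the opposite strand, so its reverse complement is in capitals. A match is a match of letters and not a measured site. The median log2 fold change was 0.16 for the 10 genes with a match and 0.17 for the 19 without.

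At the fork, Mcm10 was the 1 gene in which the genotypes did not overlap. Mcm10 (chromosome 2, 4989714 to 5012791, minus strand), which helps the loaded helicase to start and binds polymerase alpha, was at 27.2, 13.1, 28.0 and 19.5 CPM in the WT mice and at 37.0, 34.1, 31.2 and 39.0 CPM in the KO mice. The means were 22.0 ± 7.02 and 35.3 ± 3.40 CPM (SD, n = 4), giving a log2 fold change of 0.62 (SE 0.246). The adjusted p was 0.318 by edgeR's quasi-likelihood test, and the exact permutation p was 0.0286, the smallest that 4 against 4 mice can give. Any gene without overlap gets this permutation p. Mcm10 rested on 47 to 467 counts per library, with the fewest in WT mouse 2.

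Prim1 (chromosome 10, 128015168 to 128030037, plus strand), the catalytic subunit of primase, was at 112, 87.3, 75.4 and 112 CPM in WT and at 149, 109.7, 124 and 123 CPM in KO. All KO mice but number 2 were above the highest WT mouse, and the log2 fold change was 0.38 (SE 0.16; adjusted p 0.369 by edgeR). Pola1, the catalytic subunit of polymerase alpha and the partner of Prim1, was at 276 CPM in WT mouse 1 and between 169.5 and 233 CPM in the other 7 mice, and its log2 fold change was 0.07 (SE 0.144). Clspn, which links the fork to checkpoint signalling, was above every WT mouse in 3 of 4 KO mice, with means of 84.0 ± 11.5 and 99.7 ± 7.76 CPM (SD, n = 4).

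Pcna was at 194, 161, 155 and 212 CPM in WT and at 316, 197, 211 and 162 CPM in KO. KO mouse 1 stood above all others and KO mouse 4 was level with WT mouse 2, so the means, 181 ± 27.1 and 221 ± 66.2 CPM (SD, n = 4), differed by less than the spread in KO. The annotation also lists pseudogenes of Pcna and of Tyms, with which they could share reads. The clamp loader genes Rfc3 and Rfc4 had folds below 1. Rfc3 was at 30.3, 25.2, 11.9 and 10.0 CPM in WT and at 15.6, 11.9, 10.7 and 18.8 CPM in KO, so only WT mice 1 and 2 were above the KO mice. Rfc4 averaged 27.3 ± 4.01 CPM in WT and 23.8 ± 5.50 CPM in KO (SD, n = 4).

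Cdc45, Gins1 and Gins2, parts of the active helicase, were near a fold of 1, at log2 fold changes of -0.11, 0.05 and 0.09 with SE of 0.246, 0.289 and 0.214. The direction of Gins1 turned in 8 of 18 alternative analyses. Fen1, the nuclease that trims Okazaki fragments, was at 82.8, 70.1, 46.4 and 48.1 CPM in the KO mice, and all but KO mouse 1 lay within the WT range of 45.3 to 77.8 CPM. Of the exon length of Fen1, 84.2% overlaps a gene on the other strand, as does 67.3% of that of Gins2, so the counts of both are uncertain.

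All 4 genes of nucleotide supply had a fold above 1. Rrm2 (chromosome 12, 24708241 to 24714146, plus strand), the S-phase subunit of ribonucleotide reductase, was at 59.1, 56.8, 51.1 and 81.3 CPM in WT and at 77.9, 85.4, 104 and 85.6 CPM in KO. WT mouse 4 was above KO mouse 1 and otherwise the genotypes did not overlap, with a log2 fold change of 0.51 (SE 0.179; adjusted p 0.254 by edgeR). The exact permutation p of Rrm2 was 0.0571 for n = 4 against 4. Rrm1, the large subunit, was at 476, 395, 325 and 464 CPM in WT and at 532, 409, 495 and 429.7 CPM in KO, giving a log2 fold change of 0.17 (SE 0.125). Tk1, thymidine kinase, was at 30.0 CPM in WT mouse 1 and between 17.9 and 18.7 CPM in the other WT mice, and between 22.8 and 32.0 CPM in KO. Tyms, thymidylate synthase, averaged 84.2 ± 20.5 CPM in WT and 93.9 ± 18.0 CPM in KO (SD, n = 4).

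Genes of chromatin assembly differed in direction. Chaf1a, the large subunit of the histone chaperone CAF-1, was at 50.8, 27.4, 62.7 and 52.4 CPM in WT and at 76.6, 41.0, 70.5 and 64.6 CPM in KO, giving a log2 fold change of 0.36 (SE 0.221). Chaf1b, its partner subunit, was at 64.1, 46.2, 50.5 and 47.3 CPM in WT and at 26.3, 37.4, 51.9 and 63.5 CPM in KO, giving a log2 fold change of -0.22 (SE 0.229). KO mouse 1 thus had the highest Chaf1a and the lowest Chaf1b level of all 8 mice. Of the exon length of Chaf1a 52.5% overlaps a gene on the other strand. Slbp, which binds histone mRNA, was at 68.9 ± 9.79 and 72.0 ± 12.5 CPM (SD, n = 4), and Hells, a chromatin remodeller, at 77.3 ± 25.0 and 87.8 ± 8.08 CPM.

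The widest spread was that of Ccne1. Ccne1 (chromosome 7, 38097984 to 38107534, minus strand), cyclin E1, which with its kinase drives entry into S phase, had 18, 4, 6 and 32 counts in the WT mice and 28, 62, 271 and 26 counts in the KO mice. In CPM these were 3.12, 1.12, 1.18 and 5.16 in WT and 4.00, 8.78, 18.1 and 4.83 in KO. KO mice 2 and 3 were above all WT mice, while KO mice 1 and 4 were below WT mouse 4. The log2 fold change was 1.88 (SE 0.575; adjusted p 0.163 by edgeR) and 1.04 without KO mouse 3. With all genes that had at least 1 count entered, the adjusted p of Ccne1 by edgeR was 0.0165, and it ran from 0.0165 to 0.747 over the alternatives.

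The related cyclin E2 gene, Ccne2, did not follow the same order of mice. It was at 13.5, 10.6, 9.60 and 9.68 CPM in WT and at 20.4, 6.51, 17.6 and 9.84 CPM in KO, so KO mouse 2 had the lowest level of Ccne2 and the second highest of Ccne1. E2f1, the transcription factor, was at 42.9 CPM in KO mouse 3 and between 22.9 and 35.3 CPM in the other 7 mice (log2 fold change 0.11, SE 0.241). Dtl, the substrate receptor of the ubiquitin ligase that removes Cdt1 in S phase, averaged 187 ± 30.4 CPM in WT and 219 ± 16.6 CPM in KO (SD, n = 4). Ung, which cuts uracil out of newly made DNA, was at 82.6 to 92.1 CPM in WT and at 67.3, 97.5, 142 and 125 CPM in the KO mice. Thus KO mouse 1 was the lowest and the other 3 KO mice the highest of all.

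**Figure D2:**
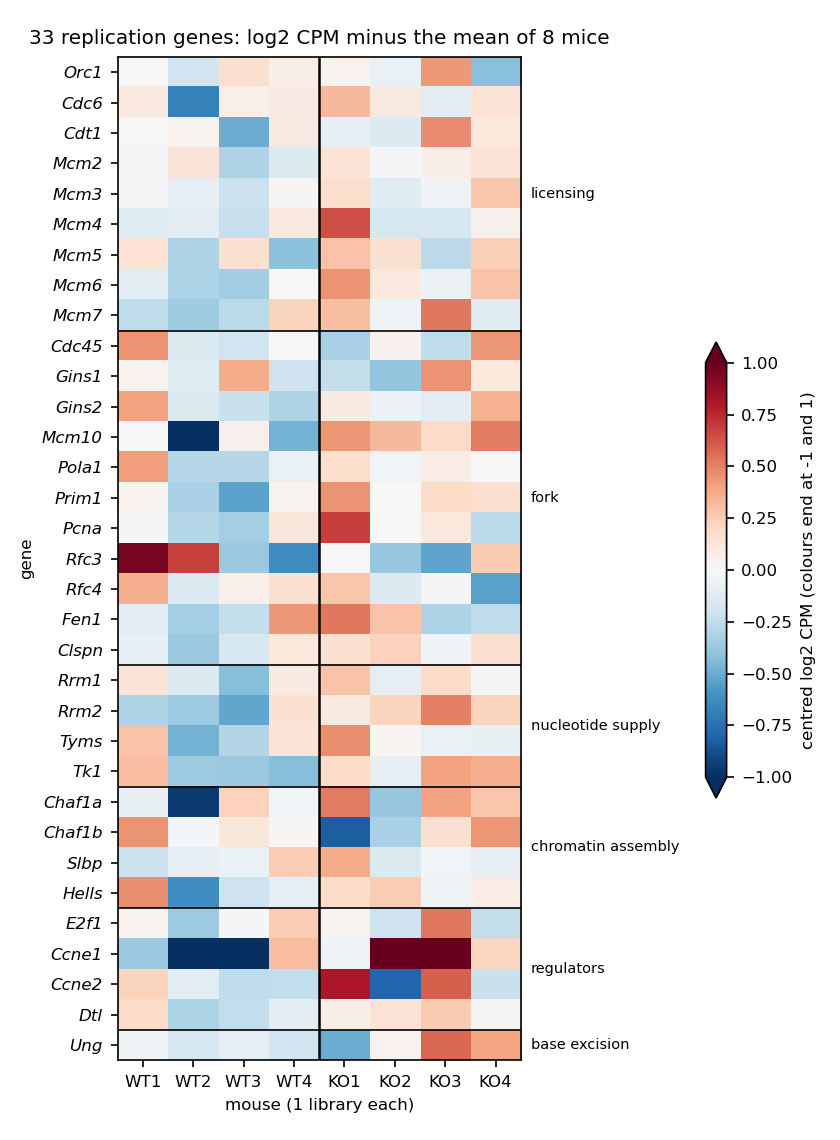
Centred log2 CPM (colour; each gene's mean over the 8 mice is 0) of the 33 genes in rows, ordered by role, and the 8 mice in columns; colours end at -1 and 1. WT mice 2 and 3 are mostly blue and KO mouse 1 mostly red. KO mouse 3 shares red cells with KO mouse 1, as in Ccne2, Chaf1a and Mcm7. Cdt1, Gins1, Chaf1b, Ung and Ccne1 are above 0 in KO mouse 3 and below 0 in KO mouse 1.

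A score per mouse was the mean over the 33 genes of log2 CPM centred on each gene's mean over all mice. The scores were 0.099, -0.304, -0.216 and -0.022 in the WT mice and 0.186, -0.019, 0.186 and 0.090 in the KO mice. WT mouse 1 lay above KO mice 2 and 4, and KO mouse 2 was level with WT mouse 4. The same mean over all 11498 genes was between -0.016 and 0.022 in every mouse. The KO minus WT difference of the score was 0.22 on the log2 scale, against a pooled SD within genotypes of 0.147. Leaving out 1 mouse moved this difference to between 0.16 (without WT mouse 2) and 0.29 (without WT mouse 1), and leaving out WT mouse 2 and KO mouse 3 together gave 0.13. With the median over genes in place of the mean, WT mice 1 to 4 were at 0.032, -0.285, -0.229 and 0.015 and KO mice 1 to 4 at 0.181, -0.029, 0.105 and 0.134, so WT mouse 1 was then below KO mouse 4.

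WT mice 2 and 3 and KO mice 1 and 3 held most of the extremes, but no mouse alone did. WT mouse 2 had the lowest level of all 8 mice in 12 of the 33 genes and WT mouse 3 in 9, together 21 of 33. KO mouse 1 had the highest level in 13 and KO mouse 3 in 10, together 23 of 33. These pairs were picked from the same counts, and their share over all genes was not counted. Limma voom's sample weights, taken over all genes, were lowest for KO mouse 3 (0.549) and KO mouse 1 (0.718). In the others they ran from 0.828 (WT mouse 1) to 1.44 (WT mouse 2). The highest mouse was a KO mouse in 26 of 33 genes (78.8%), beside 50.2% of all genes, and the lowest was a WT mouse in 26 of 33, beside 50.1%. WT mouse 2 was also the shallowest library and KO mouse 3 the deepest, and with every library thinned to 3594315 counts the score difference was 0.19.

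**Figure D3:**
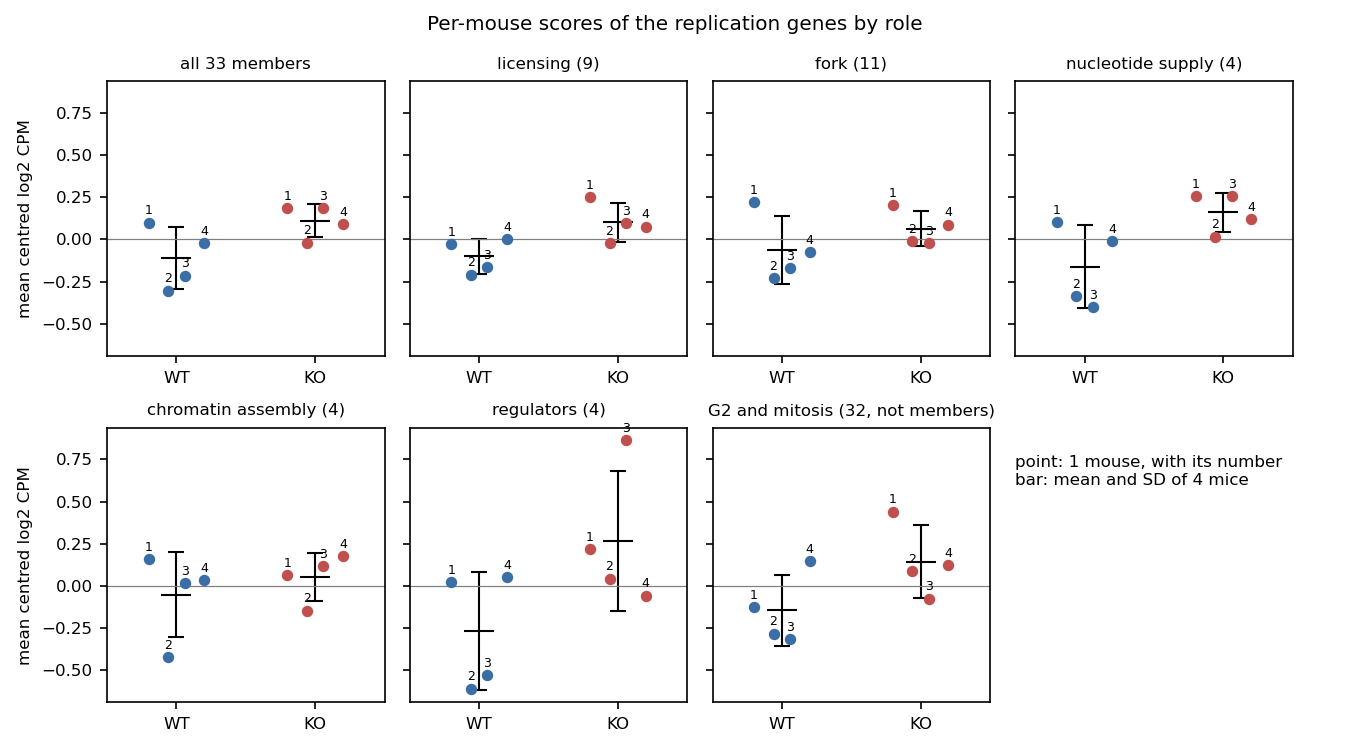
Mean centred log2 CPM per mouse (points, numbered by mouse) for all 33 genes, for 5 roles and for 32 genes of G2 and mitosis, with the mean and SD of 4 mice per genotype. WT mice 2 and 3 are lowest in the panel of all genes at -0.304 and -0.216, and WT mouse 1 at 0.099 lies among the KO mice.

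By role, the KO minus WT difference of the score was 0.20 for licensing, 0.13 for the fork, 0.32 for nucleotide supply, 0.11 for chromatin assembly and 0.53 for the regulators. Without Ccne1, the gene that passed the filter mostly through the KO libraries, the regulators differed by 0.16 and all remaining 32 genes by 0.18. The score of the 4 regulators, Ccne1 among them, held KO mouse 3 at 0.863 and the other KO mice at between -0.057 and 0.218. In the fork genes WT mouse 1 at 0.222 was above all KO mice. The summed level of the 9 licensing genes was 1536, 1418, 1369 and 1625 CPM in the WT mice and 2087, 1606, 1644 and 1816 CPM in the KO mice, so that KO mouse 2 was just below WT mouse 4.

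KO mice 1 and 3 had the same score, 0.186, though some single genes differed between them. Other genes, such as Ccne2, Chaf1a and Mcm7, were above their mean over all mice in both. KO mouse 1 was higher than KO mouse 3 by more than 0.5 on the log2 scale in 7 genes: Fen1, Mcm4, Pcna, Mcm5, Rfc3, Tyms and Mcm6. KO mouse 3 was higher than KO mouse 1 by more than 0.5 in 5 genes: Cdt1, Gins1, Chaf1b, Ung and Ccne1. As KO mouse 1 minus KO mouse 3, the largest gap in the first direction was 0.83 for Fen1 (82.8 against 46.4 CPM), and in the other direction -2.10 for Ccne1 (4.00 against 18.1 CPM), followed by -1.07 for Ung and -0.97 for Chaf1b. The share of all genes tested with gaps above 0.5 was not counted, so the 7 and 5 cannot be called particular to the replication genes. Over all genes, these 2 libraries differed most among pairs of the same genotype. Chi-squared per degree of freedom of their counts was 34.1, against 10.9 to 25.4 in the other pairs. That measure also grows with depth. Without Ccne1 the scores were 0.193 in KO mouse 1 and 0.128 in KO mouse 3. Across the 33 genes the centred profiles of these 2 mice had a Pearson's r of -0.17. Centring each gene on its mean over all mice by itself makes r between mice negative on average. This r therefore cannot show that the 2 profiles differ, and genes are not independent replicates. With 1 library per mouse, the contrast between KO mice 1 and 3 has no replicate check.

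**Figure D4:**
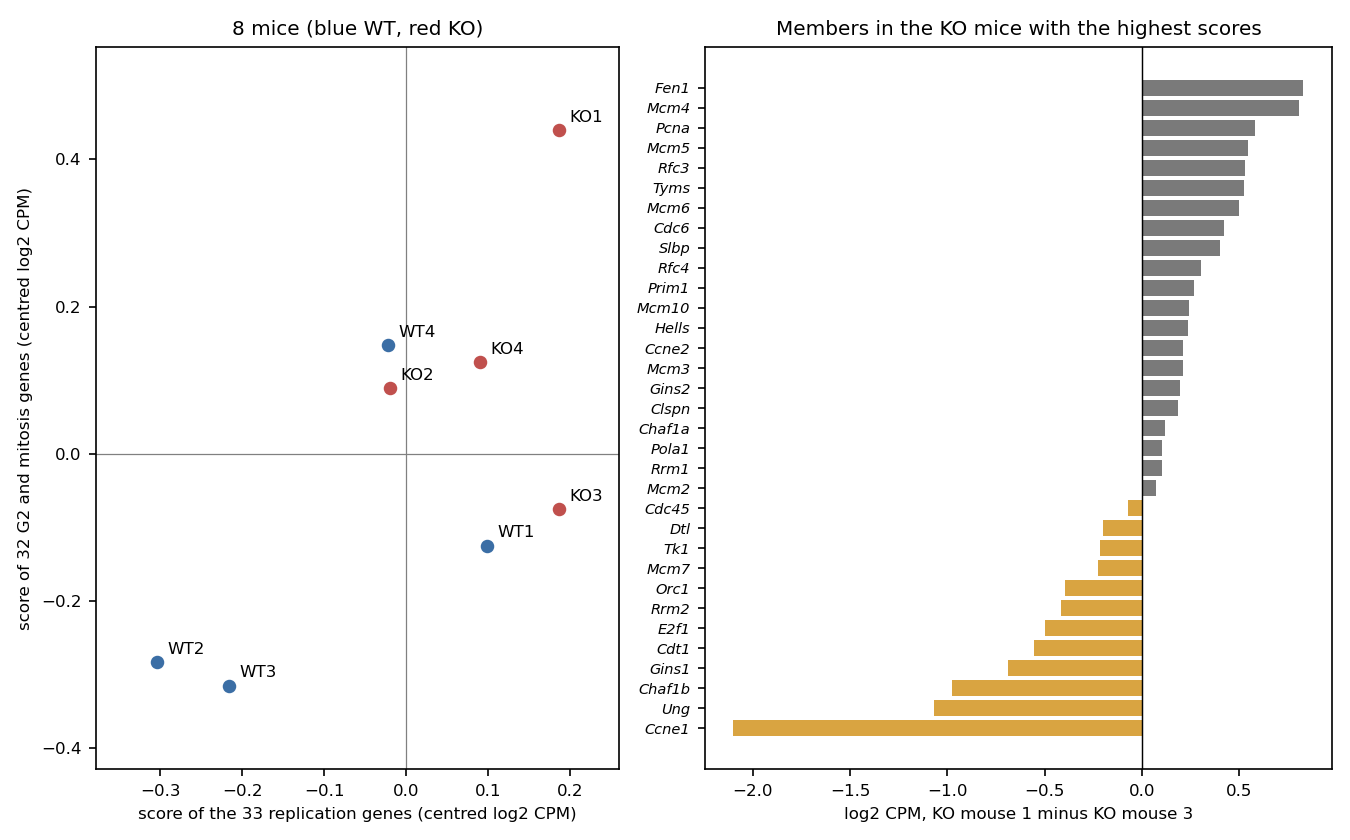
Left, the score of the 33 genes (x axis) and of 32 genes of G2 and mitosis (y axis) in each mouse, both as mean centred log2 CPM. Right, log2 CPM of KO mouse 1 minus KO mouse 3 for each gene: KO mice 1 and 3 share an x value of 0.186 but are at 0.44 and -0.075 on the y axis.

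The list of 32 G2 and mitosis genes, which shares no gene with the 33, was scored in the same way. It was at -0.125, -0.284, -0.316 and 0.147 in the WT mice and at 0.440, 0.089, -0.075 and 0.124 in the KO mice. WT mice 2 and 3 were thus lowest in both lists and no mouse was above KO mouse 1 in either, KO mouse 3 being level with it in the replication genes, while WT mouse 1 and KO mouse 3 were above the mean of all mice in replication genes and below it in mitotic genes. Of the 32, 28 had a fold above 1, beside 50.2% of all genes. Their log2 fold changes had a median of 0.27, and 0 passed edgeR's test. The 4 with the smallest p were Ckap2l, a spindle protein, at 93.6 ± 17.9 CPM in WT against 149 ± 29.7 CPM in KO, Cenpe, a kinetochore motor, at 270.0 ± 52.6 against 387 ± 64.7 CPM, Ube2c, at 40.0 ± 10.5 against 60.6 ± 11.6 CPM, and Nuf2, at 30.3 ± 7.11 against 45.4 ± 7.13 CPM (SD, n = 4). Mcm6 had the highest correlation of the 33 with the mitotic score over 8 mice (Pearson's r 0.95), and Chaf1b (-0.59), Gins1 (-0.53) and Ung (-0.26) the lowest.

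Levels of the 33 genes moved together across mice only in part. Over the 528 gene pairs the median Pearson's r of log2 CPM over 8 mice was 0.32, with 28.2% of pairs above 0.5; over all pairs of genes tested the median was 0.00, with 11.2% above 0.5. With each genotype's mean removed, the median of the 33 was 0.23 and 22.7% of pairs were above 0.5, beside 0.00 and 13.2% for all genes. The 32 mitotic genes had a median of 0.54, and the 62 other replication genes 0.10. Within roles the median was 0.56 for nucleotide supply, 0.51 for the regulators, 0.33 for licensing, 0.21 for the fork and -0.04 for chromatin assembly. These are descriptions over 8 libraries that differ in depth, and the median of the 33 went from 0.32 to 0.22 without WT mouse 2.

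The closest pairs were Rrm2 with Ccne1 (r 0.94, and 0.87 with genotype means removed), Prim1 with Rrm1 (0.92 and 0.96) and Mcm6 with Prim1 (0.89 and 0.77). The most opposed was Pcna with Chaf1b (-0.73 and -0.69). Against the score of the other 32 genes, Prim1 (0.90), Dtl (0.87), Tk1 (0.82) and Rrm1 (0.81) had the highest r, and Rfc3 (-0.21), Chaf1b (-0.17) and Gins1 (0.01) the lowest. The catalytic primase subunit and the large ribonucleotide reductase subunit thus followed the set, and the clamp loader subunit Rfc3 did not. With genotype means removed, r was 0.81 for Prim1, 0.79 for Rrm1, -0.02 for Rfc3 and 0.11 for Chaf1b. The other clamp loader subunit, Rfc4, went from 0.14 to 0.61. Rfc3 had 61 to 175 counts per library, Tk1 67 to 478 and Rrm1 1411 to 7410. Few counts can lower r, and their part was not tested.

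**Figure D5:**
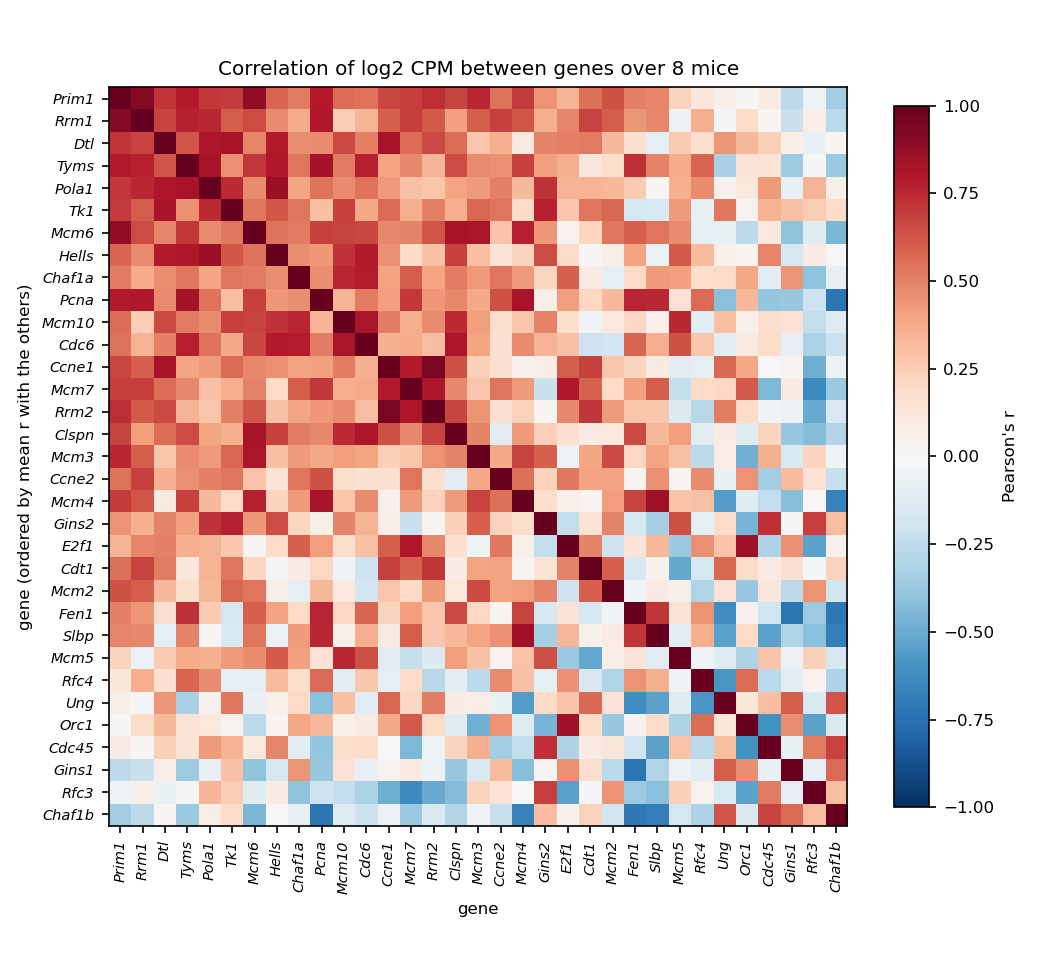
Pearson's r of log2 CPM over 8 mice for each pair of the 33 genes (colour), with genes on both axes ordered by their mean r with the others. Pairs among the first genes, Prim1 to Pcna, are mostly positive, and the last rows, Cdc45, Gins1, Rfc3 and Chaf1b, hold many of the negative values.

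Of 62 other genes of DNA replication and S phase, 39 were fitted with a KO level above WT, beside 50.2% of all genes. The median of their log2 fold changes was 0.09. None passed edgeR's test over all genes (0 higher, 0 lower). Before adjustment, p was under 0.05 for 7 genes higher in KO and for 0 genes lower, beside 5.76% and 5.44% of all genes. The 4 with the smallest p were Tfdp1, the partner of E2F factors, at 305 ± 34.7 CPM in WT against 419 ± 83.5 CPM in KO, Ccna2, cyclin A2, at 128 ± 18.9 and 175 ± 27.4 CPM, E2f2 at 20.2 ± 3.28 and 30.8 ± 2.49 CPM, and E2f8 at 111 ± 7.26 and 144 ± 20.6 CPM (SD, n = 4). In 2 of the 62, E2f2 and Ticrr, all KO mice were above all WT mice, beside 2.88% of all genes. Ticrr averaged 90.2 ± 11.7 CPM in WT and 117 ± 9.76 CPM in KO (SD, n = 4). Of 12 regulators of G1 phase, 0 passed. Cdkn1a, which encodes the CDK inhibitor p21, averaged 5.58 ± 2.34 CPM in WT and 12.4 ± 2.78 CPM in KO without overlap, and Cdkn1c, the inhibitor p57, at 19.8 ± 2.18 and 12.7 ± 5.07 CPM (SD, n = 4). By edgeR's quasi-likelihood test their adjusted p was 0.279 and 0.424. Rb1 and Rbl1, of the retinoblastoma family that restrains E2F factors, had log2 fold changes of 0.39 (SE 0.166) and 0.32 (SE 0.166).

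Among 6691 genes outside the set with at least 20 CPM, the 10 with the highest Pearson's r to the score over 8 mice were Fam92a, Fignl1, Psmc5, Supt16, Fcf1, Usp54, Spred2, Suds3, Xrcc3 and Cep19, from 0.96 down to 0.93. None belonged to the other lists (0 of 10). Of the 100 highest, 0 were among the 53 other replication genes at that level and 2 among the 27 mitotic genes. The best of 6691 over 8 mice are high by selection, so these are names and values only.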

How the data were processed

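RNA-seq of sorted haematopoietic stem cells from 8 mice (4 WT, 4 KO) was analysed from raw read counts per gene symbol that the authors deposited, 1 table per library. Per the labels' protocols, reads were mapped with STAR 2.4.0d-2 and counted with htseq-count; the submitters' processing notes name mm10. Which annotation and strand setting were used is not given in the sources used here. The 33 genes and all lists were chosen with earlier results of these data known, so no p is given for a score or a list.

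Counts were fitted over all genes with edgeR 4.0.16 in R 4.3.3 (filterByExpr with minimum count 10 and minimum total 15, TMM, robust quasi-likelihood test on genotype), two-sided, with Benjamini-Hochberg adjustment at 0.05; p-values measure the spread between these mice. The procedure was checked on simulated counts. Log2 CPM used a prior count of 2. Single genes were also compared by an exact permutation test over 70 splits. Coordinates and exon lengths came from GENCODE M21 and promoters from RefSeq. Alternatives were DESeq2 1.42.0 and its size factors, limma 3.58.1 voom, library totals, other filters, legacy quasi-likelihood, thinning, a replicate block and omission of each mouse; omission of the shallowest and deepest library together, and scores without Ccne1, were chosen after seeing the data. Values per mouse are printed for genes with an unadjusted p under 0.05 or no overlap, the extreme folds and leading genes of each role. From the other lists, 4 genes with the smallest p are named, with Ticrr added for its lack of overlap. As most alike, the 10 genes of at least 20 CPM with the highest r to the score are named. Other genes shown per mouse were chosen after their values were seen. One stem cell marker of the list is not reported here and was left out of its sums.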

Additional observations from a re-analysis of the deposited data

Results flagged for a closer look

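In 5 of 96 groups of 4 mice examined, 1 mouse lay far from the other 3; chance gives about 1 in 20 such groups. Cdc6 was at 22.9 CPM in WT mouse 2 and at 38.2 to 39.4 CPM in the other WT mice. Cdt1 was at 31.1 CPM in WT mouse 3 and at 44.2 to 47.0 CPM in the others. Tk1 was at 30.0 CPM in WT mouse 1 and at 17.9 to 18.7 CPM in the others. The score of the 4 myeloid progenitor markers that passed the filter was 1.10 in KO mouse 2 and between -0.11 and 0.07 in the other KO mice. The library of KO mouse 3 held 14872493 counts and the other KO libraries 5541504 to 7059382. The part of the last 2 in the values of the replication genes was not tested.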

How the results depend on the processing

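With every gene of at least 1 count entered, 2 of the 33 genes passed in place of 0, and 109 genes in all were called higher and 90 lower, in place of 29 and 38. DESeq2 called 78 and 76 genes, limma voom called 25 lower, and the omission of WT mouse 2 and KO mouse 3 together left 19 and 14. Leaving out 1 mouse gave 14 to 33 genes higher and 21 to 38 lower, 3 to 8 of the 33 at an unadjusted p under 0.05 higher (2 without WT mouse 2 and KO mouse 3) and 0 to 1 lower. The count with a fold above 1 was 25 to 29, and the causes were not tested. With the replicate block 0 of the 33 passed, and 25 genes were called higher and 32 lower. Same-numbered mice did not deviate together (r from -0.092 to -0.009). Whether they shared more than a number is not known, and these r cannot settle it.

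Of 593 log2 fold changes of single members under alternatives, 27 had the other sign and 2 newly passed. Gins1 was at -0.016 with DESeq2, -0.021 with voom, -0.012 with legacy quasi-likelihood, -0.015 with the replicate block and -0.17 thinned. Orc1 was at -0.027 and Slbp at -0.0027 with voom, and at -0.18 and -0.077 thinned. Cdc45 was at 0.0016 with voom. Leaving out 1 mouse gave ranges of -0.25 to 0.071 for Cdc45, -0.15 to 0.21 for E2f1, -0.084 to 0.30 for Fen1, -0.22 to 0.18 for Gins1, -0.016 to 0.29 for Gins2, -0.013 to 0.31 for Mcm4, -0.14 to 0.18 for Orc1, -0.0047 to 0.26 for Pola1, -0.069 to 0.16 for Slbp and -0.013 to 0.26 for Tyms. Without WT mouse 2 and KO mouse 3, E2f1 was at -0.23, Gins1 at -0.25, Orc1 at -0.19 and Pola1 at -0.0017. Counts per library were as few as 4 for Ccne1. With libraries thinned to the shallowest, Ccne1 was at 1.79 and Ccne2 at 0.13 in place of 1.88 and 0.40.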
